A study of Homo sapiens with 6 samples.

Results

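The aminoacyl-tRNA synthetases and their scaffold proteins were followed across 3 conditions in MDA-MB-231 cells. The set held 38 of the 21619 genes in the count files: 20 cytosolic enzymes or enzyme subunits, 16 mitochondrial enzymes whose symbols end in 2, and the scaffold genes AIMP1 and AIMP2. It was chosen by gene name and does not hold every mitochondrial synthetase. MDA-MB-231 is an established human breast cancer line. Here the cells of every group carried the ribosomal protein L10a fused to EGFP, so that ribosomes could be pulled down with an antibody to GFP and the mRNAs bound to them sequenced (translating ribosome affinity purification, TRAP). After 24 h in 0.2% serum, cells of the lower dose group received 30 ng/mL of the chemokine CXCL12 together with 10 ng/mL of the growth factor IGF1 for 6 h. Cells of the higher dose group received CXCL12 at 300 ng/mL and IGF1 at 100 ng/mL, and untreated cells received neither. Each group had 2 libraries, lettered a and b, which the labels call biological replicates. Only 1 cell line was used, and CXCL12 and IGF1 were always given together, so their separate parts cannot be told apart. Total RNA was not analysed here, and mRNA abundance and ribosome association cannot be told apart in any value below.

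Aminoacyl-tRNA synthetases join each amino acid to its matching tRNA, the step that supplies every ribosome with charged tRNA. Most amino acids have a cytosolic and a mitochondrial enzyme encoded by separate nuclear genes, while GARS and KARS each encode both forms. In the cytosol several of the enzymes sit with the AIMP scaffold proteins in a large multisynthetase complex. Many cytosolic synthetase genes are described as targets of ATF4, the transcription factor of the amino acid response. A gain or loss of reads here is a change in the share of pulled-down mRNA, not in enzyme protein or activity.

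Between 26255079 and 30280322 reads fell on genes in each library, and the members held 196 to 8866 reads each. Levels of single genes are given as CPM, edgeR's counts scaled to library size with TMM factors. Changes are log2 fold changes with their standard error and an adjusted p from edgeR's quasi-likelihood test over all 13548 genes tested, with a threshold of 0.05. A gene is said to have risen or fallen only where it passed that threshold. The libraries carried the line's markers: VIM stood at 2680 to 3748 CPM and AXL at 1000.2 to 1204 CPM, while ESR1 did not exceed 0.140 CPM and PGR did not exceed 0.177 CPM. VIM and AXL were lowest in both libraries of the higher dose. VIM had 2690.0 and 2680.3 CPM there, against 3748 and 3588 CPM in untreated cells. AXL had 1008 and 1000.2 CPM, against 1202 and 1204 CPM. Their part in the results below was not tested.

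All 38 members passed the filter on low counts. At the higher dose 23 of them passed the test against untreated cells, 11 higher and 12 lower, which is 60.5% against a background of 56.3% of all genes tested. The background was 28.1% for genes that rose and 28.2% for genes that fell. No member changed by 1.5-fold or more, a size reached by 6.90% of all genes tested. The median log2 fold change over the members was 0.00, as over all genes. FARSB, which encodes a subunit of the cytosolic phenylalanine enzyme, stood at one end, and QARS, the cytosolic glutamine enzyme, at the other.

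**Figure D1:**
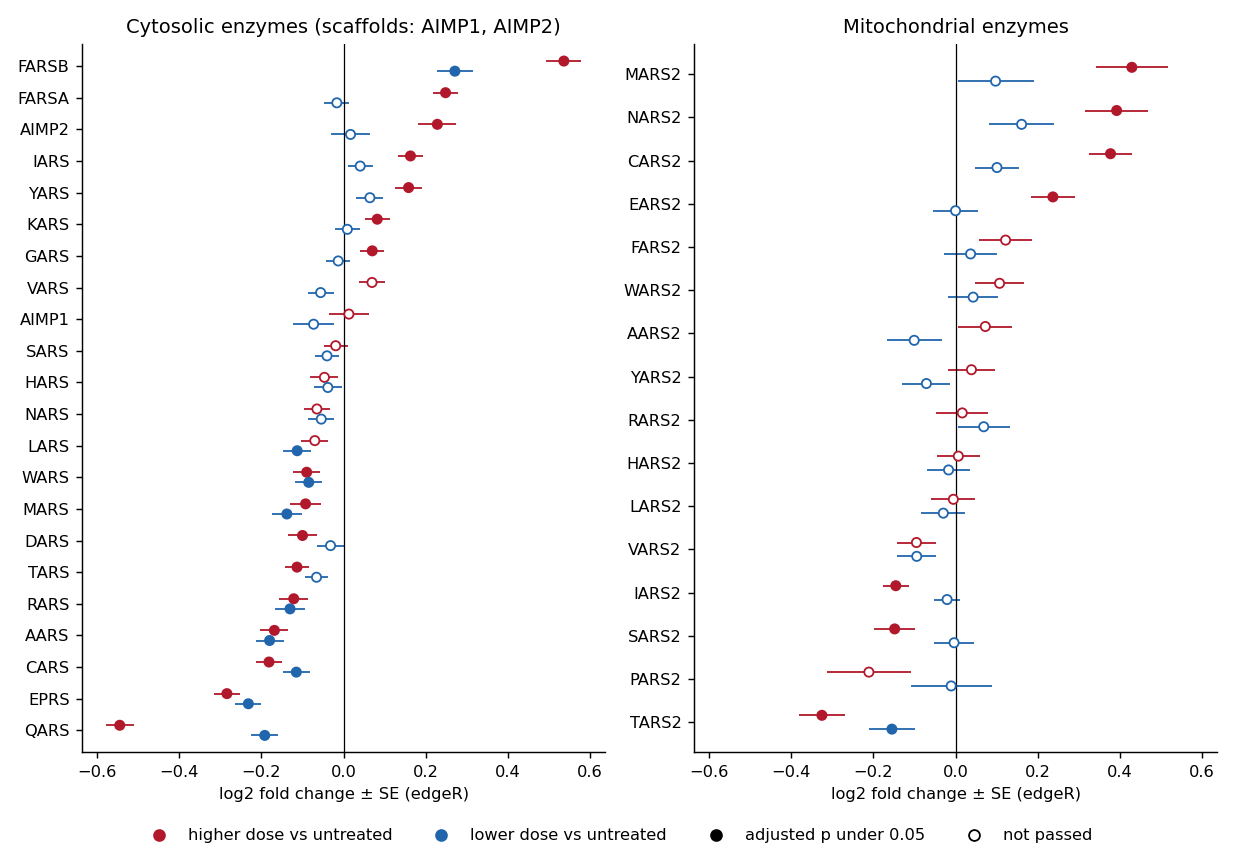
Log2 fold change of each of the 38 members (x axis, edgeR, with bars of 1 SE) against untreated cells, at the higher dose (red) and the lower dose (blue). Filled points passed the test at an adjusted p under 0.05. QARS at -0.54 and FARSB at 0.54 mark the ends of the range at the higher dose.

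Of the 20 cytosolic genes, 6 rose, 9 fell and 5 did not pass at the higher dose, with a median log2 fold change of -0.07. The background was 28.1% for genes that rose and 28.2% for genes that fell. Cytosolic phenylalanyl-tRNA synthetase is built from a catalytic subunit, encoded by FARSA, and a second subunit, encoded by FARSB. FARSB had 51.2 and 51.1 CPM untreated, 64.3 and 59.1 CPM with the lower dose and 75.4 and 72.8 CPM with the higher. Each step up in dose stood above the one before it, with no overlap between groups. The rise was 0.54 ± 0.04 (adjusted p = 2.88e-16) at the higher dose and 0.27 ± 0.04 (adjusted p = 1.39e-06) at the lower dose against the same untreated libraries, and 0.27 ± 0.04 (adjusted p = 5.05e-07) between the doses. FARSA had 209 and 199 CPM untreated, 200.2 and 203 CPM with the lower dose and 245 and 239 CPM with the higher. Here the untreated and lower dose libraries overlapped and both higher dose libraries stood above them, with 0.25 ± 0.03 (adjusted p = 2.7e-10) at the higher dose against untreated cells and 0.26 ± 0.03 (adjusted p = 2.21e-10) against the lower dose. At the lower dose FARSA did not pass, at -0.02 ± 0.03 (adjusted p = 0.73).

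Among single-chain cytosolic enzymes, IARS, which charges isoleucine, and YARS, which charges tyrosine, rose at the higher dose. IARS had 180.3 and 179.5 CPM untreated, 184 and 186 CPM with the lower dose and 206 and 197 CPM with the higher. Its higher dose libraries lay above all others, and the change was 0.16 ± 0.03 (adjusted p = 6.88e-06) against untreated cells and 0.12 ± 0.03 (adjusted p = 0.000971) against the lower dose, the second with an adjusted p of 0.0771 without higher dose library a. YARS had 136 and 129.6 CPM untreated, 138 and 140.0 CPM with the lower dose and 150.4 and 146 CPM with the higher. Its higher dose libraries also lay above all others, with 0.16 ± 0.03 (adjusted p = 3.89e-05) against untreated cells, while at the lower dose it did not pass, at 0.06 ± 0.03 (adjusted p = 0.133). The other 2 that rose were KARS, for lysine, at 0.08 ± 0.03 (adjusted p = 0.0178), and GARS, for glycine, at 0.07 ± 0.03 (adjusted p = 0.0379). Both calls were lost under DESeq2, where KARS had an adjusted p of 0.0708 and GARS one of 0.113. Both were also lost in edgeR without untreated library b (KARS 0.0903, GARS 0.307), higher dose library a (KARS 0.0919, GARS 0.181) or higher dose library b (KARS 0.0622, GARS 0.0863).

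QARS fell more than any other member at the higher dose. It had 155 and 149 CPM untreated, 132 and 134 CPM with the lower dose and 106 and 102 CPM with the higher, a stepwise order with no overlap between groups. The fall was -0.54 ± 0.03 (adjusted p = 1.89e-20) at the higher dose, -0.19 ± 0.03 (adjusted p = 3.75e-06) at the lower dose and -0.35 ± 0.03 (adjusted p = 2.01e-12) between the doses. EPRS, a single protein that charges both glutamate and proline, had 155 and 155 CPM untreated, 135 and 129.7 CPM with the lower dose and 127 and 128 CPM with the higher. Both treated groups lay below the untreated libraries. Its change was -0.28 ± 0.03 (adjusted p = 4.61e-11) at the higher dose and -0.23 ± 0.03 (adjusted p = 5.08e-08) at the lower dose, and the doses did not pass against each other, at -0.05 ± 0.03 (adjusted p = 0.228).

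CARS, AARS and RARS, the cytosolic enzymes for cysteine, alanine and arginine, fell less. CARS had 130.4 and 131 CPM untreated, 119 and 122 CPM with the lower dose and 116 and 115 CPM with the higher, with the untreated libraries above all treated ones. Its change was -0.18 ± 0.03 (adjusted p = 4.07e-06) at the higher dose and -0.12 ± 0.03 (adjusted p = 0.00436) at the lower dose, where the adjusted p was 0.0733 without lower dose library a. AARS had 111 and 111 CPM untreated, 98.5 and 98.3 CPM with the lower dose and 101 and 97.6 CPM with the higher, again with both treated groups below the untreated libraries. It fell by a similar amount at each dose, -0.17 ± 0.03 (adjusted p = 3.14e-05) at the higher and -0.18 ± 0.03 (adjusted p = 2.91e-05) at the lower, and the difference between the doses was 0.01 ± 0.03 (adjusted p = 0.839). RARS had 112 and 107 CPM untreated, 98.3 and 102 CPM with the lower dose and 104 and 98.03 CPM with the higher. All 4 treated libraries lay below both untreated ones, with -0.12 ± 0.04 (adjusted p = 0.00326) at the higher dose and -0.13 ± 0.04 (adjusted p = 0.00331) at the lower dose. Without untreated library a the adjusted p of RARS at the higher dose was 0.0538, and without higher dose library b it was 0.133. The lower dose call had 0.0610 without untreated library a and 0.0732 without lower dose library a.

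The remaining cytosolic genes that fell at the higher dose were TARS for threonine at -0.11, DARS for aspartate at -0.10, MARS for methionine at -0.09 and WARS for tryptophan at -0.09. Without higher dose library b the adjusted p was 0.0947 for TARS, 0.335 for MARS and 0.239 for WARS, and without untreated library a it was 0.117 for MARS and 0.353 for WARS. DARS had 0.244 without untreated library b and 0.0930 without higher dose library a. Those that did not pass were VARS at 0.07, SARS at -0.02, HARS at -0.05, NARS at -0.06 and LARS at -0.07, the enzymes for valine, serine, histidine, asparagine and leucine. DESeq2 gave adjusted p-values of 0.0724 for DARS, 0.133 for MARS and 0.0759 for WARS. With a correction for transcript length and GC content in edgeR, VARS passed as higher, at 0.17 with an adjusted p of 1.93e-06, while MARS (0.160), WARS (0.138) and KARS (0.0930) no longer passed.

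The multisynthetase complex was represented by 8 enzymes and both AIMP genes. At the higher dose 3 of these 10 rose (IARS, KARS and AIMP2), 5 fell (QARS, EPRS, RARS, DARS and MARS) and 2 did not pass, with a median of -0.08. The background was 28.1% of all genes that rose and 28.2% that fell. The calls of KARS, DARS and MARS were lost under DESeq2, and that of RARS depended on single libraries, as given above. Of the 12 cytosolic enzyme genes outside the complex, 4 rose and 4 fell, with a median of -0.03. AIMP2, a scaffold on which the complex is assembled, had 45.2 and 47.5 CPM untreated, 49.3 and 44.7 CPM with the lower dose and 53.9 and 54.9 CPM with the higher. Its higher dose libraries lay above the other 4, with 0.23 ± 0.05 (adjusted p = 3.09e-05) against untreated cells and 0.21 ± 0.05 (adjusted p = 0.000212) against the lower dose. AIMP1, a scaffold that also binds tRNA, had 38.9 and 40.3 CPM untreated, 37.3 and 38.1 CPM with the lower dose and 39.5 and 40.5 CPM with the higher and did not pass, at 0.01 ± 0.05 (adjusted p = 0.841). EEF1E1, the third scaffold of the complex and no member of the set, rose by 0.63 ± 0.06 (adjusted p = 3.97e-14) at the higher dose.

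The 2 catalytic classes of synthetases, which differ in the fold of the active site, were both mixed at the higher dose. Among 9 cytosolic class I genes 2 rose and 5 fell, with a median of -0.09. Among 10 class II genes 4 rose and 3 fell, with a median of -0.03. Of all genes tested at that dose, 28.1% rose and 28.2% fell. At the lower dose 6 of the 9 class I genes fell, and of the 10 class II genes 1 rose and 1 fell, beside 15.9% of all genes that fell and 16.7% that rose. Without lower dose library a, CARS, LARS, RARS and WARS lost their calls, which leaves 2 class I genes, and the difference between the classes was not tested. EPRS has a domain of each class and was counted in neither.

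**Figure D2:**
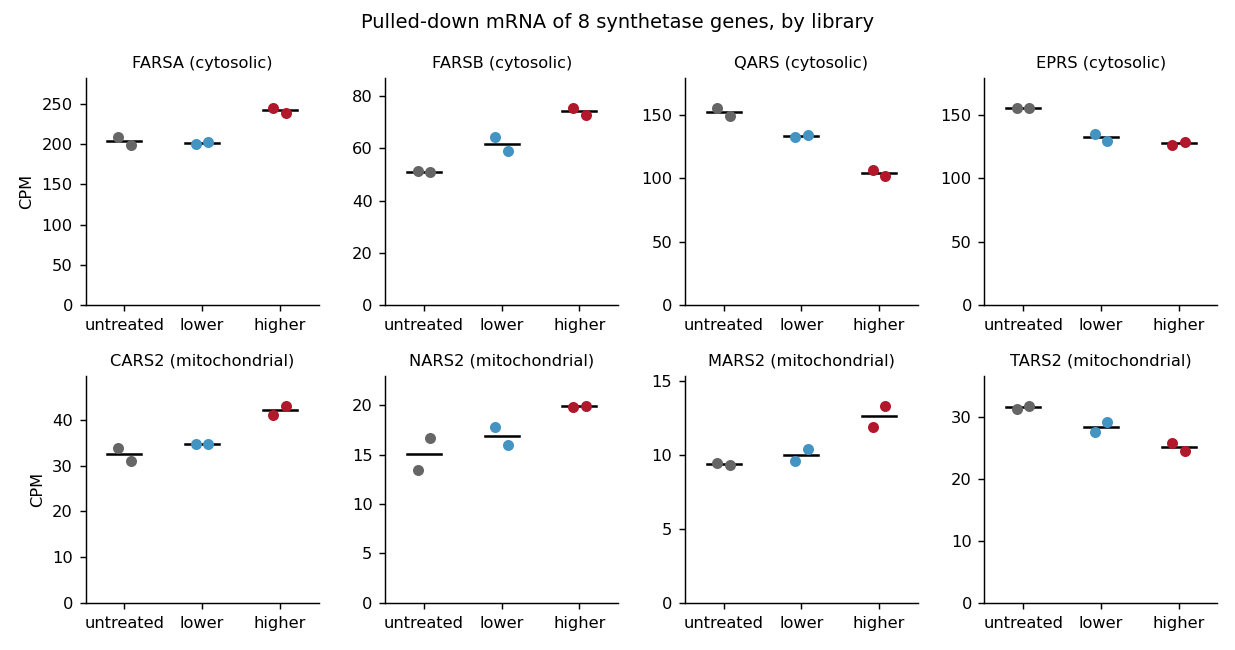
CPM (y axis, from 0, with its own scale in each panel) of 4 cytosolic and 4 mitochondrial enzyme genes in each library, by dose (x axis). Points are libraries a and b of a group and the bar is their mean. FARSB and QARS moved stepwise in opposite directions, and MARS2 stood highest in both higher dose libraries.

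Of the 16 mitochondrial genes, 4 rose, 3 fell and 9 did not pass at the higher dose, with a median of 0.03. The background was 28.1% for genes that rose and 28.2% for genes that fell. The 4 that rose charge methionine, asparagine, cysteine and glutamate inside the mitochondrion. MARS2 had 9.47 and 9.30 CPM untreated, 9.63 and 10.4 CPM with the lower dose and 11.9 and 13.3 CPM with the higher. Both higher dose libraries stood above all others, with 0.43 ± 0.09 (adjusted p = 3.81e-05) against untreated cells and 0.33 ± 0.09 (adjusted p = 0.00187) against the lower dose, the second with an adjusted p of 0.0898 without higher dose library b. NARS2 had 13.4 and 16.7 CPM untreated, 17.8 and 16.01 CPM with the lower dose and 19.8 and 19.9 CPM with the higher. Its higher dose libraries stood above all others, but the untreated libraries lay apart from each other and overlapped the lower dose. The change was 0.39 ± 0.08 (adjusted p = 1.53e-05) at the higher dose and 0.16 ± 0.08 (adjusted p = 0.113) at the lower dose. The first of these was 0.25 without untreated library a and 0.57 without untreated library b, and passed in both. Without untreated library b, NARS2 passed at the lower dose as well, at 0.34 with an adjusted p of 0.00283, and without lower dose library b it did so at 0.24 with an adjusted p of 0.0457.

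CARS2 had 33.9 and 30.99 CPM untreated, 34.7 and 34.7 CPM with the lower dose and 41 and 43.1 CPM with the higher, with both higher dose libraries above the other 4. It rose by 0.38 ± 0.05 (adjusted p = 9.41e-09) against untreated cells and by 0.28 ± 0.05 (adjusted p = 1.48e-05) against the lower dose. EARS2 had 28.98 and 27.9 CPM untreated, 28.3 and 28.6 CPM with the lower dose and 34.1 and 32.9 CPM with the higher, again highest in the higher dose libraries. Its change was 0.24 ± 0.05 (adjusted p = 0.000173) against untreated cells and 0.00 ± 0.06 (adjusted p = 0.999) at the lower dose.

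TARS2, the mitochondrial threonine enzyme, had 31.3 and 31.8 CPM untreated, 27.6 and 29.1 CPM with the lower dose and 25.9 and 24.6 CPM with the higher. The groups did not overlap and were ordered by dose, with -0.33 ± 0.06 (adjusted p = 1.95e-06) at the higher dose and -0.15 ± 0.06 (adjusted p = 0.025) at the lower dose. At the lower dose DESeq2 gave an adjusted p of 0.163, and edgeR gave 0.102 without untreated library b and 0.231 without lower dose library a. SARS2, for serine, had 39.6 and 38.8 CPM untreated, 38.9 and 39.2 CPM with the lower dose and 35.8 and 34.9 CPM with the higher, lowest in both higher dose libraries. Its fall was -0.15 ± 0.05 (adjusted p = 0.00954) with edgeR, against an adjusted p of 0.0822 with DESeq2 and 0.0883 with edgeR without higher dose library b. IARS2, for isoleucine, was the most abundant of the mitochondrial set and had 181 and 185 CPM untreated, 178 and 183 CPM with the lower dose and 170.1 and 161 CPM with the higher. Both higher dose libraries lay below the other 4, at -0.15 ± 0.03 (adjusted p = 7.82e-05) against untreated cells.

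The 9 mitochondrial genes that did not pass at the higher dose ranged from -0.21 for PARS2 to 0.12 for FARS2. The others were VARS2 at -0.10, LARS2 at -0.01, HARS2 at 0.01, RARS2 at 0.02, YARS2 at 0.04, AARS2 at 0.07 and WARS2 at 0.11. With the length and GC correction in edgeR, AARS2 passed as higher, at 0.16 with an adjusted p of 0.0281. PARS2 had the fewest reads of the set and the widest standard error, 0.10, with an adjusted p of 0.0743. The cytosolic gene GARS, with more reads, passed at a smaller change, 0.07 ± 0.03.

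Counterparts that charge the same amino acid were then set side by side at the higher dose. Over 14 pairs with 1 gene for each compartment, counting FARSA with FARS2, the mitochondrial gene had the higher log2 fold change in 8 and the cytosolic gene in 6. Both genes passed in 4 pairs, and in 3 of these they moved in opposite directions. Of all genes tested 56.3% passed, 28.1% higher and 28.2% lower, so pairs of either kind are common without any link between the genes. Whether the pairs differ from unrelated genes was not tested. CARS fell while CARS2 rose, at -0.18 and 0.38. MARS fell while MARS2 rose, at -0.09 and 0.43, although MARS, with 90.98 and 89.01 CPM untreated, 81.6 and 81.9 CPM with the lower dose and 86.6 and 82.2 CPM with the higher, lost its call under DESeq2 (adjusted p = 0.133). IARS rose while IARS2 fell, at 0.16 and -0.15. In the fourth pair TARS and TARS2 both fell, at -0.11 and -0.33. EPRS, whose glutamate activity has its mitochondrial counterpart in EARS2, fell while EARS2 rose, at -0.28 and 0.24.

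**Figure D3:**
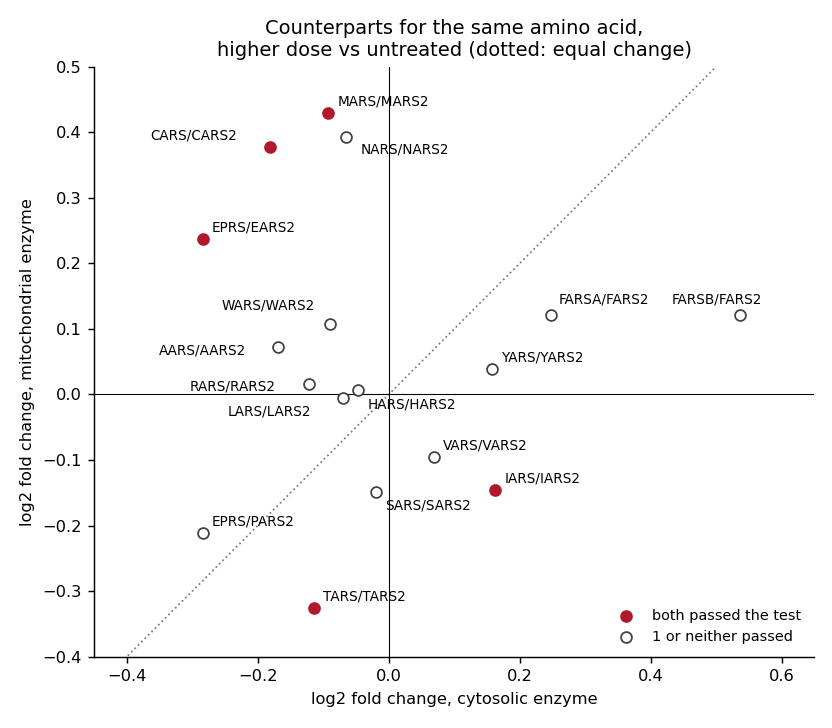
Log2 fold change at the higher dose against untreated cells of the cytosolic (x axis) and mitochondrial (y axis) gene for the same amino acid, in 17 pairs. EPRS and FARS2 each appear in 2 pairs. Filled points are pairs in which both genes passed the test, and CARS/CARS2, MARS/MARS2 and EPRS/EARS2 lie above and left of the origin.

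The promoters of these opposed pairs are shown because some of their windows carry different motifs. Genes and windows were picked for print by their calls and motifs. A link between motif and change therefore cannot be read from them and was not tested. RefSeq windows on GRCh38.p14, each running from 250 bases before to 50 after a transcript start, were found for 32 of the 38 members. No entry was used for DARS, LARS, VARS, YARS, AARS2 and VARS2. These coordinates are on another build than hg19, on which the reads were aligned. Capitals mark TGATGNAA, the core of the C/EBP-ATF response element, or CACGTG, the E-box, searched on both strands, so that TTGCATCA is the first motif read on the other strand. CARS lies at chr11:3057374-3057673 on the minus strand, CARS2 at chr13:110706466-110706765 on the minus strand, MARS at chr12:57487818-57488117 on the plus strand, MARS2 at chr2:197705119-197705418 on the plus strand, IARS at chr9:92293648-92293947 on the minus strand and EARS2 at chr16:23557301-23557600 on the minus strand. IARS holds both motifs. IARS2 and EPRS, the other genes of these pairs, hold neither and are not printed. CARS, CARS2 and EARS2 have a further window in the table that is not printed. Those of CARS and CARS2 hold neither motif, and that of EARS2 holds the same E-box.
CARS: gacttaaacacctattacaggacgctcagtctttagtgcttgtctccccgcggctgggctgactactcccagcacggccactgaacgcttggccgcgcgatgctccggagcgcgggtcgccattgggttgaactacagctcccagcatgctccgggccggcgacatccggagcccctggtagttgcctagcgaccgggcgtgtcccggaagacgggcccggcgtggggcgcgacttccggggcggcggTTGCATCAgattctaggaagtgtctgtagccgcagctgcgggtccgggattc
CARS2: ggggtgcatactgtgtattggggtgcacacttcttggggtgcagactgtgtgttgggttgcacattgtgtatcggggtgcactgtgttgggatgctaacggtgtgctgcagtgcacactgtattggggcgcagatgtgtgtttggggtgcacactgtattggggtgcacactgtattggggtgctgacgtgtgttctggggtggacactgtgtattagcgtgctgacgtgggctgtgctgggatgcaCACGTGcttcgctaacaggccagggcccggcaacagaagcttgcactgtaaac
MARS: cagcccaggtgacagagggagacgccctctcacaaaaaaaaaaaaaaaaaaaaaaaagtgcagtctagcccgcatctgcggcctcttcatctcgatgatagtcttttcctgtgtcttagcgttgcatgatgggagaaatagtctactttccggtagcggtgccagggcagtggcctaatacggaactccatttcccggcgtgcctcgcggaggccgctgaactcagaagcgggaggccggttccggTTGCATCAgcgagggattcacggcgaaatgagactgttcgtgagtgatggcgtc
MARS2: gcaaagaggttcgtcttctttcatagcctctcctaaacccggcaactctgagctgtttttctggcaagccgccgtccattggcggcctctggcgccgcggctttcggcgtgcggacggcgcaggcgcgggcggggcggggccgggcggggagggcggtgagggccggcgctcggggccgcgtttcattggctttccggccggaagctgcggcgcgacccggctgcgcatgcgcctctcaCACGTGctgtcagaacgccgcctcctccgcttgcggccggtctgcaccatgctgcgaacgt
IARS: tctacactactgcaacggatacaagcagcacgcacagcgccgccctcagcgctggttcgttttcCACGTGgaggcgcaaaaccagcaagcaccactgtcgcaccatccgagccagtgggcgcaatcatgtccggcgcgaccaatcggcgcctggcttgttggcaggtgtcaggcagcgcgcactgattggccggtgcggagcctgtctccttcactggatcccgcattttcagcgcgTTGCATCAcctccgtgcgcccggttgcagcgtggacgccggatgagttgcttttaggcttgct
EARS2: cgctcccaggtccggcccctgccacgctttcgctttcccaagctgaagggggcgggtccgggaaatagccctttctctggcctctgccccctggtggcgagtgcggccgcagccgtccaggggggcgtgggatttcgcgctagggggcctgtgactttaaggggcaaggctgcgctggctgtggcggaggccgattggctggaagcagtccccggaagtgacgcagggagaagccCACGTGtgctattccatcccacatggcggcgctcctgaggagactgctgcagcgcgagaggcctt

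TGATGNAA was present in 7 of 16 cytosolic genes with a promoter (AARS, CARS, GARS, IARS, MARS, NARS and TARS) and in 1 of 14 mitochondrial genes (YARS2), against 4.46% of the 27305 genes in the table. Of these 7 cytosolic genes, 2 rose (GARS and IARS), 4 fell (AARS, CARS, MARS and TARS) and 1 did not pass at the higher dose. Among the 9 cytosolic genes without it, 3 rose and 4 fell, beside 28.1% of all genes that rose and 28.2% that fell. The calls of GARS and MARS with the motif, and of KARS and WARS without it, were lost under DESeq2. Those of TARS and RARS depended on single libraries, as given above. CACGTG was present in IARS, CARS2, EARS2, MARS2 and AIMP2, against 8.77% of all genes in the table. All 5 rose at the higher dose, as did 5 of the 27 members whose windows lacked it, beside 28.1% of all genes tested. The share that rose among all genes holding CACGTG was not counted, so these 5 cannot be placed against it. A gene was counted if any of its windows held the motif. AIMP2 held CACGTG in window 2 and not in window 1, and CARS2 in window 1 and not in window 2. On the plus strand, window 2 of AIMP2 (chr7:6009315-6009614) lies past the transcript start of window 1 (chr7:6009022-6009321). Its CACGTG is therefore downstream of that start. The presence of a motif is a description of these letters and was not tested against the changes.

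At the lower dose 10 of the 38 members passed against untreated cells, 1 higher and 9 lower, which is 26.3% against a background of 32.6% (16.7% higher and 15.9% lower). The untreated libraries are the same as in the comparison above. No member reached 1.5-fold, against 0.760% of all genes. The gene that rose was FARSB. Of the 9 that fell, 8 were cytosolic: QARS, EPRS, AARS, MARS, RARS, CARS, LARS and WARS, from -0.23 for EPRS to -0.08 for WARS. TARS2 was the 1 mitochondrial gene. Mitochondrial genes other than IARS2 had fewer reads and wider standard errors than the cytosolic genes. Changes of the same size passed less readily among them: NARS2 did not pass at 0.16 ± 0.08, while WARS passed at -0.08 ± 0.03. Counts of calls in each compartment therefore do not compare like with like. LARS fell, at -0.11 ± 0.03 (adjusted p = 0.00638), with an adjusted p of 0.0553 without untreated library b and 0.0521 without lower dose library a, and MARS fell, at -0.14 ± 0.04 (adjusted p = 0.00242). Without lower dose library a the count was 5, with CARS, LARS, RARS, TARS2 and WARS lost. The median log2 fold change was -0.06 over cytosolic and -0.01 over mitochondrial genes, against 0.00 over all genes. With the length and GC correction 13 members passed at the lower dose, 2 higher and 11 lower, beside 30.6% of all genes. The place of the members against the background thus depended on this setting.

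Between the doses 16 members passed, 12 higher and 4 lower at the higher dose, which is 42.1% against a background of 34.0% (16.4% higher and 17.6% lower). No member reached 1.5-fold, against 1.33% of all genes. Cytosolic genes that rose were FARSB, FARSA, VARS, IARS, YARS and GARS, from 0.08 for GARS to 0.27 for FARSB. Mitochondrial genes that rose were MARS2, CARS2, EARS2, NARS2 and AARS2, from 0.17 for AARS2 to 0.33 for MARS2, and AIMP2 was the remaining one. QARS, TARS2, SARS2 and IARS2 fell. DESeq2 called 10, 8 higher and 2 lower, and the count was 9 without lower dose library b and also 9 without higher dose library b. The calls lost were AARS2, GARS, NARS2, SARS2, TARS2, VARS and YARS without lower dose library b, and AARS2, GARS, IARS2, MARS2, NARS2, SARS2 and TARS2 without higher dose library b. Without lower dose library a they were AARS2, GARS, SARS2 and YARS, and without higher dose library a AARS2, GARS, IARS, NARS2 and YARS.

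The reads of each compartment were then summed, in CPM of reads on genes without TMM factors. The 20 cytosolic genes took 3053 ± 31.7 CPM when untreated, 2930.2 ± 1.94 CPM with the lower dose and 2989 ± 47.4 CPM with the higher dose (SD, n = 2 each). The 16 mitochondrial genes took 576 ± 5.79, 570.4 ± 2.26 and 571 ± 9.22 CPM in the same order. By library the cytosolic sums were 3076 and 3031 CPM untreated, 2929 and 2932 CPM with the lower dose and 3022 and 2955 CPM with the higher. Both lower dose libraries were lowest. The higher dose libraries lay below both untreated ones on this scale but not with TMM-scaled library sizes, where they had 3031.4 and 2961 CPM against 3071 and 3025 CPM in untreated cells. The mitochondrial sums of the 3 groups overlapped. The ratio of cytosolic to mitochondrial reads was 5.38 and 5.22 in untreated cells, 5.15 and 5.13 at the lower dose and 5.23 and 5.24 at the higher dose. With 2 libraries a group a permutation over libraries cannot reach the threshold, so no test of these sums is given.

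The difference between the median log2 fold changes of cytosolic and mitochondrial genes was -0.09 at the higher dose, -0.05 at the lower dose and -0.03 between the doses. It was -0.07 at the higher dose and -0.03 at the lower dose without untreated library a, -0.08 at the lower dose without lower dose library a, and 0.01 between the doses without lower dose library b. Transcript length moved with the changes: across 12956 genes the log2 fold change at the higher dose had a Spearman correlation of -0.26 with it, as a description. The median transcript was 2866 nt for cytosolic and 2494 nt for mitochondrial genes. Once corrected for transcript length and GC, the medians at the higher dose were -0.05 for cytosolic and 0.04 for mitochondrial genes. Of the cytosolic genes 6 were higher and 7 lower, and of the mitochondrial genes 5 were higher and 3 lower. In this fit 54.3% of all genes passed in either direction.

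Per kilobase of transcript, levels in untreated cells ran from 15.2 CPM per kb for FARSB and 27.6 for LARS to 114 for SARS and 116 for TARS among the cytosolic genes. Mitochondrial genes ran from 3.11 CPM per kb for MARS2 and 3.44 for PARS2 to 24.04 for SARS2 and 51.4 for IARS2. FARSA stood at 99.1 CPM per kb, above its partner subunit. The FARSB to FARSA read ratio was 0.245 and 0.257 in untreated cells, 0.321 and 0.292 at the lower dose and 0.308 and 0.305 at the higher dose. Both treated groups lay above the untreated libraries and overlapped each other.

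Other genes of tRNA biology and the amino acid response were counted in the same fit at the higher dose. Of 53 genes for tRNA processing and modification, 38 rose and 4 fell, with a median of 0.29 against 0.00 over all genes. Of all genes tested 28.1% rose and 28.2% fell, which is the background for each list here. PUS1, which makes pseudouridine in tRNA, rose by 0.81 ± 0.05 (adjusted p = 7.6e-19), and TRMT61A, the catalytic subunit of a tRNA methyltransferase, rose by 0.65 ± 0.05 (adjusted p = 2.33e-18). ELAC1, a nuclease of tRNA ends, fell, at -0.59 ± 0.16 (adjusted p = 0.00154), and C22orf28, the tRNA ligase also named RTCB, fell, at -0.19 ± 0.04 (adjusted p = 3.85e-05). Of 12 partners in aminoacylation 5 rose and 1 fell, with a median of 0.07. EEF1E1 and QRSL1, a subunit of the mitochondrial enzyme that amidates glutamyl-tRNA, rose most, the second by 0.42 ± 0.07 (adjusted p = 2.36e-06), and SEPSECS, which makes selenocysteinyl-tRNA, fell, at -0.35 ± 0.11 (adjusted p = 0.00848).

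ATF4 mRNA itself had 389 and 389 CPM untreated, 484 and 473 CPM with the lower dose and 517 and 535 CPM with the higher, rising at both doses with no overlap between groups. Its change was 0.44 ± 0.03 (adjusted p = 4.7e-20) at the higher dose and 0.30 ± 0.03 (adjusted p = 7.52e-13) at the lower dose. Of 26 tested genes on the list of ATF4 and targets other than synthetases, 15 rose and 4 fell, with a median of 0.24. The background for every list in this paragraph was 28.1% for genes that rose and 28.2% for genes that fell. CEBPB, a C/EBP transcription factor, rose by 0.70 ± 0.04 (adjusted p = 8.71e-20), and SESN2, a leucine sensor, rose by 0.54 ± 0.08 (adjusted p = 1.87e-08). CTH, which makes cysteine from cystathionine, fell, at -0.65 ± 0.07 (adjusted p = 1.86e-11), and PHGDH, the first enzyme of serine synthesis, fell, at -0.44 ± 0.04 (adjusted p = 1.13e-12). Of the 13 cytosolic synthetases widely described as ATF4 targets, 3 rose and 6 fell, with a median of -0.07. Of the other 7 cytosolic genes 3 rose and 3 fell, with a median of -0.05. Under DESeq2 the calls of GARS, MARS and WARS among the 13, and of DARS and KARS among the 7, were lost. Of 11 mitochondrial translation factors 4 rose and 2 fell, with a median of 0.11. MTIF2, an initiation factor, rose by 0.38 ± 0.04 (adjusted p = 1.67e-12) and MRRF, a ribosome recycling factor, by 0.28 ± 0.06 (adjusted p = 0.000145), while GFM2, another recycling factor, fell, at -0.25 ± 0.06 (adjusted p = 0.000193) and TUFM, the elongation factor Tu, fell as well, at -0.13 ± 0.03 (adjusted p = 0.000128).

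**Figure D4:**
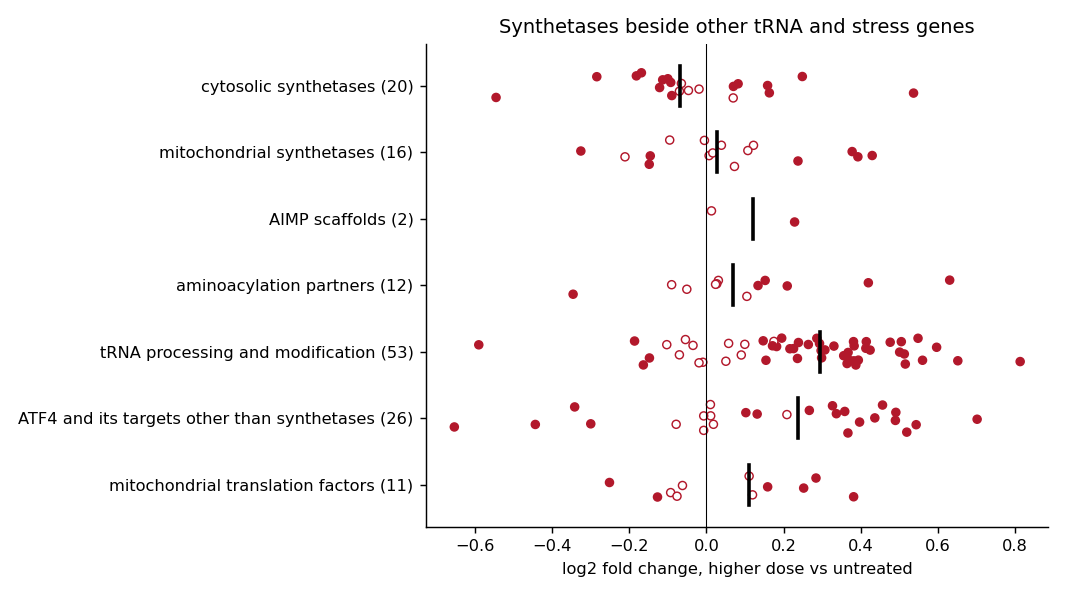
Log2 fold change at the higher dose against untreated cells (x axis) of each tested gene in the synthetase groups and in 4 other gene lists. Points are genes, filled where they passed the test, bars are medians, and the number of genes is in brackets. The tRNA processing list has a median of 0.29, against -0.07 for the cytosolic synthetases.

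In GENCODE v29, exons of 13 members overlap exons of another listed gene, and whether the counting used strand is not given in the sources used here. The values of these members are therefore uncertain. The overlap was 28.9% of exon bases for AIMP2 with EIF2AK1, 22% for VARS2 with GTF2H4, 11.7% for HARS2 with HARS, 11.6% for AIMP1 with TBCK and 10.8% for SARS2 with MRPS12. It was 6.46% for EARS2 with UBFD1, 7.38% for MARS with ARHGAP9, 5.05% for MARS with DDIT3 and 3.12% for CARS2 with ING1. Also affected were HARS with HARS2 (5.56%), AARS2 with TMEM151B (5.47%), YARS with S100PBP (4.82%), WARS with WDR25 (4.51%) and KARS with TERF2IP (4.33%). At the higher dose MRPS12 changed by 0.57, ING1 by 0.50, EIF2AK1 by -0.14, UBFD1 by -0.34 and DDIT3 by 0.49. S100PBP changed by -0.27, WDR25 by -0.23 and TERF2IP by -0.22. The part of these neighbours in the members' values was not tested.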

How the data were processed

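Polyadenylated RNA from anti-GFP ribosome pull-downs of MDA-MB-231 cells was sequenced in 6 libraries, 2 for each of 3 groups, grouped by the treatment labels. The authors deposited raw counts of reads for each gene symbol, made with HTSeq after CASAVA 1.8.1 and TopHat 1.4.0 on hg19, per the submitters' processing notes. The annotation, counting mode and use of strand were not given in the sources used here. HTSeq's 5 summary lines, 9.40% to 10.2% of reads, were left out. A floor of 3 counts corresponds to 0.0991 to 0.114 CPM, which covers counting error only.

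The test was edgeR 4.0.16 under R 4.3.3 (filterByExpr by group, TMM, robust quasi-likelihood fit, two-sided F test, 3 residual degrees of freedom). Benjamini-Hochberg adjustment ran over the 13548 genes tested of 21619. Each SE was the size of the log2 fold change divided by the root of F. The biological coefficient of variation was 1.79%. Chi-square per degree of freedom between replicates was 1.98 in untreated cells, 1.69 at the lower dose and 1.52 at the higher dose, so each library was counted as a sample. P-values measure only the spread between these libraries.

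The steps were tested on simulated data. Alternatives were DESeq2 1.42.0, RLE size factors, no filter, a replicate block, a length and GC correction (mgcv 1.9.3, GENCODE v29 transcripts), each library left out, and TMM-scaled sums. Given in full were the 10 cytosolic or AIMP genes and the 6 mitochondrial genes with the largest absolute log2 fold change among those past the threshold at the higher dose, and counterpart pairs passing in opposite directions. From each other list the 2 largest risers and 2 largest fallers were named. ATF4 and the exon neighbours were named after their values were seen. The members, lists and motifs were chosen with earlier results of these data known.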

Additional observations from a re-analysis of the deposited data

How the results depend on the processing

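Against untreated cells, 9 of the 11 members that rose at the higher dose and 6 of the 12 that fell passed in every alternative run. At the lower dose this held for 1 of 1 and 4 of 9, and between the doses for 5 of 12 and 1 of 4. The count of members called at the higher dose was 23, and 17 with DESeq2, 22 with the length and GC correction and 16 to 23 with each library left out. At the lower dose it was 10, and 5 to 10 with each library left out. Between the doses it was 16, and 10 with DESeq2 and 9 to 17 with each library left out. With 1 library left out, the lone library of its group was assumed to vary like the other groups. The lower dose count was 8 with DESeq2 and 13 with the length and GC correction. The count between the doses was 18 with that correction. With it, 54.3% of all genes passed at the higher dose, 30.6% at the lower dose and 33.6% between the doses. The share of all genes in the other alternative fits is not given here, so the members' counts in those fits cannot be placed against a background.

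The difference between cytosolic and mitochondrial medians ranged from -0.104 to -0.0716 at the higher dose, from -0.0764 to -0.0259 at the lower dose and from -0.0280 to 0.00844 between the doses with each library left out. With TMM-scaled library sizes the summed cytosolic level was 3048 CPM in untreated cells, 2927 CPM at the lower dose and 2996 CPM at the higher dose, against 3053, 2930.2 and 2989 CPM without, and higher dose library a then lay above untreated library b. The causes were not tested. Changes of sign among members that passed in neither fit were not counted.

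No effect shared by the letters a and b was seen: the a minus b differences of 2 groups correlated at -0.04, 0.00 and -0.03 across genes. Counting error is a large part of these differences, so they cannot settle whether the libraries were prepared as pairs. With the letter as a replicate block the counts were 23, 10 and 16, and it changed no call of a member. The members with the fewest reads, PARS2 and MARS2, had the widest standard errors.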
